A study of Mus musculus with 15 samples.

Results

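The complement components and regulators examined were 9 genes, of 24982 gene symbols counted in mouse aortas. They were chosen by name, as genes whose products act in the complement cascade: C1ra, C4b, C2, Cfb, C3, C6, C7, Serping1 and Cd55. The choice was made with earlier results of these data known. All 9 passed the filter on low counts, which left 14121 genes for testing.

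RNA-Seq was performed on 15 whole aortas, 1 library per aorta, from WT C57BL/6 male mice aged 10 months. All mice received aldosterone (200 µg/kg/d, by osmotic minipump) and drinking water with 0.9% NaCl and 0.2% KCl, together called Aldo-salt, and aortas were taken on day 7. The groups were control mice with Aldo-salt, sham-operated in place of orchiectomy by the treatment protocol, orchiectomized mice with Aldo-salt after 2 weeks of recovery, and orchiectomized mice with Aldo-salt and a pellet of dihydrotestosterone (DHT), an androgen that aromatase does not convert to estrogen. Each group had 5 mice. There was no group without Aldo-salt, and the RNA of all cells of the vessel wall and of tissue left on it was read as 1 pool.

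Complement is a chain of plasma and membrane proteins that tags and lyses targets. In the classical pathway the protease C1r activates C1s, which cuts C4 and C2 to form a C3-cleaving enzyme, and in the alternative pathway factor B forms such an enzyme with C3b. Cleaved C3 marks surfaces and, further on, leads to assembly of C5b, C6, C7, C8 and C9 into the membrane attack complex. Host cells are shielded by inhibitors such as the C1 inhibitor and decay-accelerating factor. The liver makes most plasma complement, but fibroblasts, macrophages and other cells of tissues make components locally.

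Libraries held 8268957 to 13816864 reads assigned to genes. Levels are given in CPM, gene counts scaled to a common library size after trimmed mean of M values (TMM) normalization. A gene was called changed at an unadjusted P value under 0.01 in edgeR's quasi-likelihood test, the threshold of the study, and the Benjamini-Hochberg adjusted P value over all genes tested is given beside it. Orchiectomized replicate 2 stood apart in part of the marker list of mesothelium, the cell layer that lines serous cavities. Its 9 markers summed to 851 CPM, against 16 to 115 CPM in the other 14 libraries. Msln and the keratins Krt8, Krt18 and Krt19, which other epithelia also express, made up 774 CPM of that sum, against 10.1 to 44.4 CPM elsewhere. The other 5 markers summed to 76.8 CPM, against 5.90 to 73.3 CPM, and Upk3b, Lrrn4 and Bnc1 were highest in orchiectomized replicate 3. For the complement genes named, where leaving out this library ended a call, the value without it or the loss of the call is given. Where it moved a fold change by over 1.5 times, the value without it is given too. Smooth muscle markers, which define the media of the aorta, were present in all 15 libraries, at 11200 CPM or more in sum.

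The question of the first comparison was how the level of each gene differed between orchiectomized and control mice. None of the 9 genes passed the threshold (edgeR), where 2.08% of all genes tested were called higher and 1.13% lower. At an unadjusted P value under 0.05, which 12.0% of all genes passed in either direction, C1ra was higher and C7 was lower, and DESeq2 called 1 gene, C7. The median log2 fold change of the 9 genes was 0.27, and that of all genes tested was 0.04.

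The second comparison asked how DHT altered these levels in orchiectomized mice. With DHT, 5 of the 9 genes fell: C1ra, C2, Cfb, C3 and Cd55. Of all genes tested, 7.27% were called lower and 2.46% higher. C1ra, Cfb and Cd55 also had an adjusted P value under 0.05, as did 3.80% of all genes in the same direction. In these 3 genes every DHT-treated aorta was below every untreated orchiectomized aorta, which held for 4.34% of all genes. C4b and Serping1 did not pass, and edgeR called no gene higher, while DESeq2 called C7 and voom called C6 and C7 higher. The median log2 fold change was -0.69 for the 9 genes and -0.02 for all genes tested. Because the 9 genes were chosen with earlier results known, these shares and medians describe them and do not test them as a set. Without orchiectomized replicate 2, 4 genes were lower (C1ra, C2, Cfb and Cd55) and 1 was higher (C6).

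In the third comparison, of DHT-treated orchiectomized with control mice, 2 of the 9 genes were lower, Cfb and Cd55, where 2.01% of all genes were called lower and 1.52% higher. Neither had an adjusted P value under 0.05. The median log2 fold change was -0.42 for the 9 genes and 0 for all genes tested. Each comparison shares a group with each of the other two, so the 3 sets of fold changes are not independent.

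**Figure D1:**
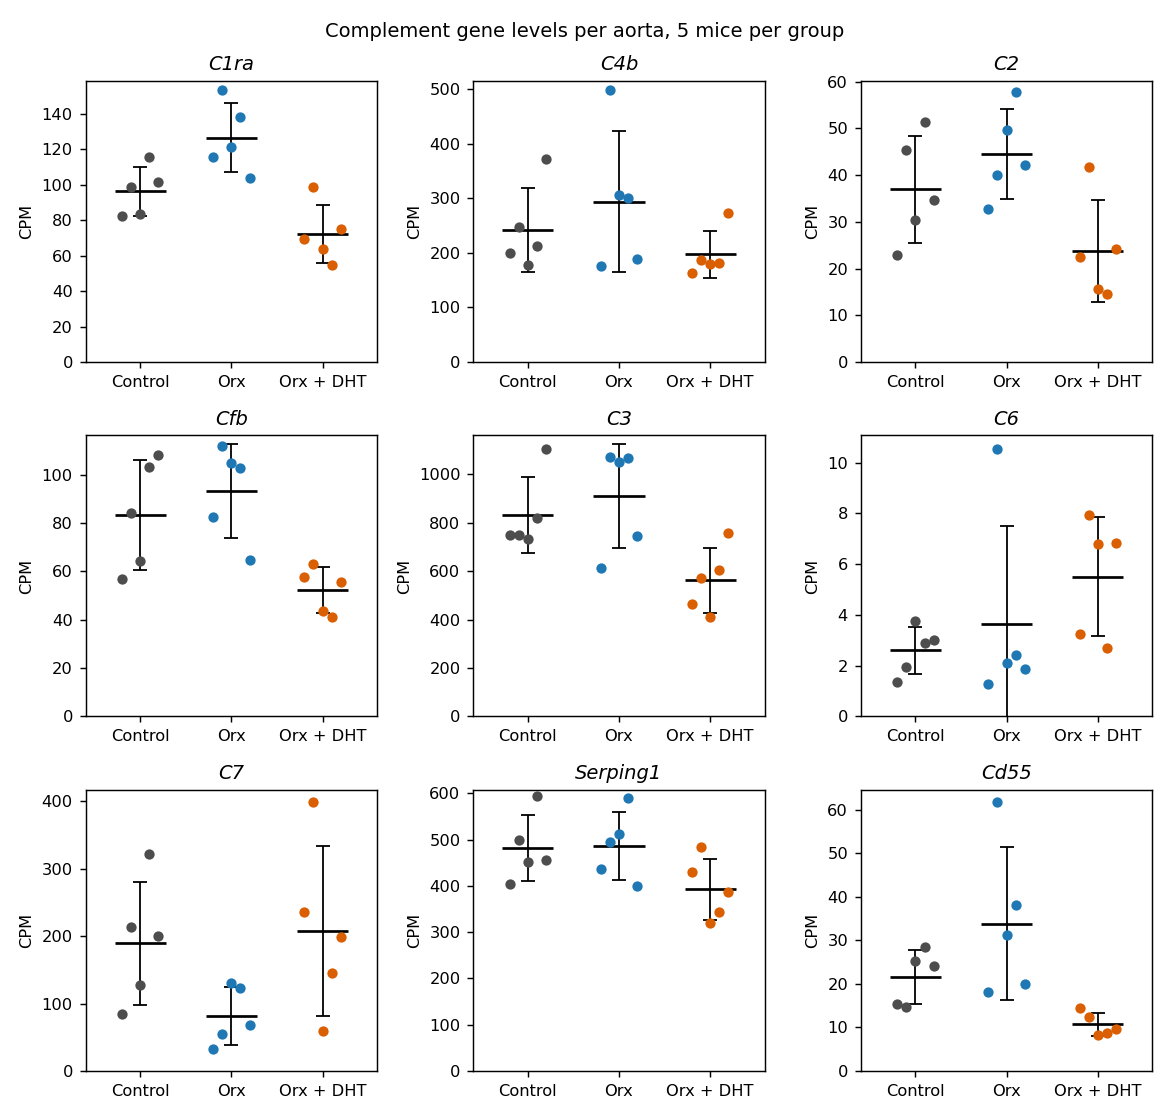
Level of each of the 9 complement genes in CPM (y axis, from 0) in every aorta (points, 5 per group) of control, orchiectomized (Orx) and DHT-treated orchiectomized (Orx + DHT) mice, with bars for the mean and SD. C1ra, Cfb and Cd55 of the DHT group lie below all points of the orchiectomized group, C7 is lowest in the orchiectomized group on average, and the SD of C6 in that group reaches below 0 because of 1 aorta at 10.5 CPM.

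C1ra, on chromosome 6 (124512405-124523443, plus strand, GRCm38), encodes C1r, the protease that activates C1s. Its level was 82.3, 98.6, 83.7, 115.7 and 101.4 CPM in the control aortas. It was 115.9, 153.6, 121.1, 138.2 and 103.8 CPM in the orchiectomized aortas and 69.2, 98.6, 63.6, 54.6 and 75.1 CPM in those given DHT. The orchiectomized and DHT groups did not overlap, while the control group overlapped both. The mean was 96.3 ± 13.8, 126.5 ± 19.6 and 72.2 ± 16.6 CPM (SD, n = 5 each). With DHT, C1ra was 1.75-fold lower than in orchiectomized mice (log2 fold change -0.81, SE 0.16, adjusted P = 0.0144). Against control, orchiectomized mice were at a log2 fold change of 0.39 (SE 0.15, adjusted P = 0.357) and DHT-treated mice at -0.42 (adjusted P = 0.336), and neither passed.

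C4b and C2 encode the proteins that C1s cuts to build the classical C3 convertase. C4b ranged from 178.2 to 371.5 CPM in control, from 175.5 to 497.8 CPM in orchiectomized and from 163.8 to 272.9 CPM in DHT-treated aortas. The ranges overlapped in every comparison, and the highest value was that of orchiectomized replicate 2. The log2 fold change of C4b between DHT-treated and orchiectomized mice was -0.58 (95% CI -1.15 to 0, adjusted P = 0.24), and without orchiectomized replicate 2 it was -0.29, also without a call.

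C2, the protease subunit of that convertase, was at 23.0, 45.3, 30.3, 51.4 and 34.7 CPM in the control aortas. It was at 32.7, 40.0, 49.6, 57.9 and 42.1 CPM in the orchiectomized aortas, and at 22.5, 41.7, 15.6, 14.6 and 24.2 CPM with DHT. One DHT-treated aorta, replicate 2, lay among the orchiectomized values and the other 4 lay below all of them. C2 was 1.87-fold lower with DHT than in orchiectomized mice (log2 fold change -0.90, SE 0.28, adjusted P = 0.0773). Leaving out any 1 of 6 aortas of the 2 groups raised its P value above 0.01, to 0.0232 at most.

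Cfb encodes factor B, the protease of the alternative-pathway convertase and a relative of C2. Its level was 57.0, 84.3, 64.4, 103.3 and 108.0 CPM in control, 82.7, 111.7, 104.9, 102.7 and 64.7 CPM in orchiectomized, and 57.8, 62.9, 43.6, 41.0 and 55.7 CPM in DHT-treated aortas. The highest DHT-treated aorta was just below the lowest orchiectomized one, and the control group reached into the DHT range. Cfb was 1.79-fold lower with DHT than in orchiectomized mice (log2 fold change -0.84, SE 0.20, adjusted P = 0.0283). It was 1.60-fold lower than in control mice (log2 fold change -0.67, SE 0.20, adjusted P = 0.208). The call against control was lost without control replicate 4 or 5 or DHT replicate 3 or 4. Orchiectomized and control mice differed by a log2 fold change of 0.16 (95% CI -0.25 to 0.58).

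C3 encodes the component on which all pathways converge. In control aortas it was at 748, 751, 732, 822 and 1103 CPM, in orchiectomized aortas at 614, 1071, 1050, 1067 and 745 CPM, and in DHT-treated aortas at 464, 573, 412, 603 and 759 CPM. Of the DHT-treated aortas, 4 were below every orchiectomized aorta, and replicate 5 lay among them. C3 was 1.62-fold lower with DHT than in orchiectomized mice (log2 fold change -0.69, SE 0.20, adjusted P = 0.0575). Without orchiectomized replicate 2 the log2 fold change was -0.62 and C3 was no longer called (adjusted P = 0.124). The same happened when any 1 of orchiectomized replicates 3 and 4 and DHT replicates 1 and 3 was left out. Against control, the DHT-treated group was at -0.56 on the log2 scale (95% CI -0.99 to -0.14, adjusted P = 0.302).

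C7 and C6, which encode successive proteins of the membrane attack complex and lie 173794 bases apart on chromosome 15, had positive log2 fold changes with DHT, where the other 7 genes had negative ones. C7 was at 84.2, 213.5, 126.9, 322.2 and 199.6 CPM in control aortas. It was at 32.5, 54.7, 130.3, 122.9 and 68.6 CPM in orchiectomized aortas and at 235.5, 398.6, 58.6, 145.0 and 198.7 CPM with DHT. In the orchiectomized group 3 aortas were below every control aorta, and 4 of the 5 DHT-treated aortas were above every orchiectomized aorta. The log2 fold change was -1.21 for orchiectomized against control mice (SE 0.48, adjusted P = 0.365) and 1.34 for DHT-treated against orchiectomized mice (SE 0.48, adjusted P = 0.121). Neither passed with edgeR, and both passed with DESeq2, at -1.23 and 1.37. C7 was also the most variable of the 9 genes, with a 12.3-fold range over the 15 aortas.

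C6 was at 1.36, 1.97, 3.75, 2.90 and 3.01 CPM in control, 1.29, 10.5, 2.10, 2.41 and 1.87 CPM in orchiectomized, and 3.25, 7.93, 6.79, 2.72 and 6.83 CPM in DHT-treated aortas, with 12 to 119 counts per library. Orchiectomized replicate 2 was higher than any other aorta, and the other 4 orchiectomized aortas were below all 5 DHT-treated ones. With all libraries the log2 fold change with DHT against orchiectomized mice was 0.59 (SE 0.52, adjusted P = 0.549). Without orchiectomized replicate 2 it was 1.52 (SE 0.37, adjusted P = 0.0433), and against control it was 1.09 (adjusted P = 0.184). Of 15 fits that each left out 1 library, 1 called C6 higher with DHT than in control mice (lowest unadjusted P = 0.00607, edgeR). For orchiectomized against control mice the log2 fold change of C6 was 0.49 with orchiectomized replicate 2 and -0.43 without it, and neither passed.

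Serping1 encodes the C1 inhibitor, which inactivates C1r and C1s. It ranged from 404.2 to 593.6 CPM in control, from 399.1 to 591.0 CPM in orchiectomized and from 319.4 to 483.2 CPM in DHT-treated aortas. It was the least variable of the 9 genes, with a 1.86-fold range over the 15 aortas. The log2 fold change was 0.02 for orchiectomized against control mice (95% CI -0.29 to 0.32). It was -0.31 for DHT-treated against orchiectomized mice (95% CI -0.62 to 0, adjusted P = 0.231).

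Cd55, on chromosome 1 (130439027-130462744, minus strand, GRCm38), encodes decay-accelerating factor, the membrane protein that takes C3 convertases apart. Its level was 15.3, 14.7, 25.3, 28.5 and 24.1 CPM in control aortas, 18.1, 61.9, 31.2, 38.2 and 20.0 CPM in orchiectomized aortas, and 14.5, 12.3, 8.20, 8.64 and 9.72 CPM with DHT. All 5 DHT-treated aortas were below all 10 aortas of the other 2 groups. Cd55 was 3.16-fold lower with DHT than in orchiectomized mice (log2 fold change -1.66, SE 0.32, adjusted P = 0.0143), the largest difference among the 9 genes with all 15 libraries. Without orchiectomized replicate 2, its highest aorta, the log2 fold change was -1.32 (adjusted P = 0.0232). It was 2.02-fold lower than in control mice (log2 fold change -1.01, SE 0.31, adjusted P = 0.243), where all aortas of a group below all of the other were seen for 1.79% of genes. That call was lost without control replicate 3, 4 or 5 or DHT replicate 3, 4 or 5.

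**Figure D2:**
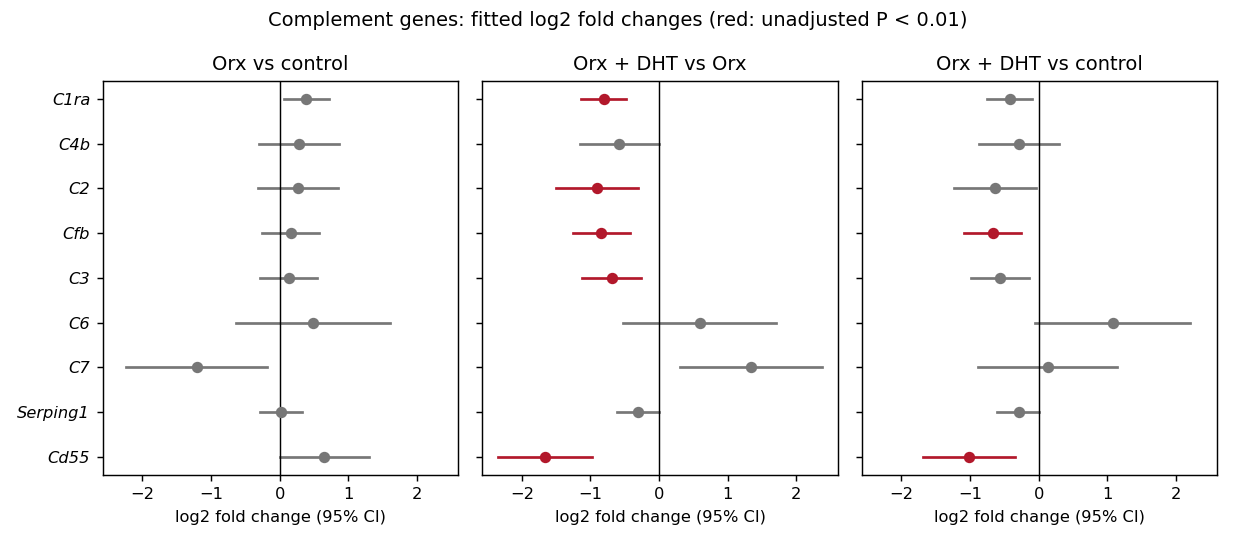
Fitted log2 fold change (x axis, points) with its 95% CI (lines) of each complement gene in the 3 comparisons, in red where the unadjusted P value was under 0.01. None was red for orchiectomized against control mice, 5 were red and negative for DHT-treated against orchiectomized mice, from -0.69 for C3 to -1.66 for Cd55, and Cfb and Cd55 were red against control.

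RefSeq promoter windows (GRCm38.p6) were matched by symbol for 5 of the 9 genes: C3, C6, C7, C1ra and Cd55. The 250 bases before the start are shown 5′ to 3′ for Cd55 and C3, which fell with DHT, and for C7, whose fold change had the opposite sign. The windows are chr1:130462745-130462994 (minus strand), chr17:57228137-57228386 (minus strand) and chr15:5063774-5064023 (minus strand). Capitals mark the only match found to the motifs searched.
Cd55: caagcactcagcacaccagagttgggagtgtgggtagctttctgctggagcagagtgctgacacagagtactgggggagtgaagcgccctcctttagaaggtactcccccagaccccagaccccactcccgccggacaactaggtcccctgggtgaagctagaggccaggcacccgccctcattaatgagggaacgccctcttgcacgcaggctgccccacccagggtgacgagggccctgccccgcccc
C3: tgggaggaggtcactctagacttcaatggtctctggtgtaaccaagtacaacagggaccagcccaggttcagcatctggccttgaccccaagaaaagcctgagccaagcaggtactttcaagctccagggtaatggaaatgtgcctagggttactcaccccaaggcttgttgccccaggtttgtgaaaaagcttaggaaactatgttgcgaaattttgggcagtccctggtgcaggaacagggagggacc
C7: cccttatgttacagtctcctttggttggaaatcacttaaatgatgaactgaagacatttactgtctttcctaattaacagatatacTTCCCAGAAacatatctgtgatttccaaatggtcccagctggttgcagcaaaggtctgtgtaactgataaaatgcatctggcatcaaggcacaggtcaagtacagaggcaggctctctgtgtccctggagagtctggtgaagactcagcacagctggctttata
Both strands of the 250 bases were searched for the androgen receptor motif TGTTCT, the interferon-stimulated response element GAAANNGAA, the gamma-interferon site TTCNNNGAA and the NF-kB motif. The gamma-interferon site was found in C7, beginning 164 bases before the start, and no other match was found in the 5 windows. The shares of 32851 windows of the same length that hold each motif were 16.1%, 7.13%, 7.02% and 7.25%, in that order. A match describes letters only, and no binding was measured here.

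Levels were compared between genes per kilobase of annotated exon. Serping1 had the highest mean over the 15 aortas (195.0 CPM per kb), followed by C3 (149.2), C7 (59.6), C4b (42.9), C1ra (33.0), Cfb (27.0), C2 (9.05), Cd55 (4.54) and C6 (1.10). The place of C7 differed by group, with means of 70.74 in control, 30.57 in orchiectomized and 77.46 CPM per kb in DHT-treated aortas. In orchiectomized aortas it was below C4b (51.55), C1ra (42.45) and Cfb (33.04). C7 was above C4b in 8 of 15 aortas and C4b above C1ra in 11 of 15, so these neighbours were not separated. The other neighbours in the order kept it in 14 or 15 of 15 aortas.

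The 9 genes varied together across aortas to differing degrees. Over the 36 pairs, Pearson's r of the log2 CPM in the 15 aortas had a median of 0.631 and ranged from -0.168, for C7 and Cd55, to 0.909, for Cfb and C1ra. After the group means were taken out, every pair was positive, from 0.095 to 0.882. With the mean z-score of all 9 genes, 7 genes had r from 0.775 (C4b) to 0.924 (Cfb), but C7 had 0.223 and C6 0.144. After removal of group means C7 had 0.762 and C6 0.64, so that within groups both rose and fell with the others more than they did across groups. These are descriptions over aortas that share groups and cell makeup, and each gene is part of the mean it is set against.

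The genes outside the 9 whose log2 CPM was most like that mean over the 15 aortas were Ifih1 (r = 0.931), Naip5 (0.929), C1s1 (0.929), Rasa3 (0.924) and Rab3il1 (0.923). C1s1, which encodes the partner protease of C1r, had the highest r of these 5 after removal of group means, 0.961. Ifih1 encodes a sensor of viral RNA and Naip5 a sensor of bacterial flagellin.

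Of 48 other complement genes listed, 29 had enough counts to be tested. In orchiectomized against control mice, Itgax and Colec11 were higher (2 of 29, where 2.08% of all genes were called higher) and none was lower. In the same comparison 3 of 3 neutrophil, 4 of 5 T cell, 6 of 6 B cell and 2 of 9 mesothelial markers tested were called higher, and their part in these calls was not tested. Without orchiectomized replicate 2 these counts were 3 of 3 neutrophil, 3 of 5 T cell, 6 of 6 B cell and 0 of 9 mesothelial markers. Itgax encodes the α chain of complement receptor 4 and ranged from 0.634 to 2.01 CPM in control and from 2.52 to 15.8 CPM in orchiectomized aortas, the highest being replicate 2. Its log2 fold change was 2.01 (adjusted P = 0.244), and 1.28 without that library (adjusted P = 0.43), where it still passed the unadjusted threshold. Colec11, a collectin that starts the lectin pathway, had 0.79 (adjusted P = 0.28), a call lost in 2 of 15 fits that each left out 1 library, those without control replicate 1 or orchiectomized replicate 1. With DHT against orchiectomized mice, 6 of the 29 fell and 2 rose, where 7.27% of all genes were called lower and 2.46% higher. C4a, 1 of the 2, passed the filter on low counts only through the DHT-treated group. The median log2 fold change of the 29 genes was -0.54, and that of all genes tested was -0.02. DHT-treated against control mice gave no call (edgeR), with 4 genes lower at an unadjusted P value under 0.05, which 11.8% of all genes passed in either direction, while DESeq2 and voom gave 1 call each.

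Of the initiating genes, C1s1 fell with DHT by 0.79 on the log2 scale (adjusted P = 0.0241), close to the value of C1ra. The 2 genes lie 6901 bases apart on chromosome 6. The 3 genes of C1q, the recognition part that carries C1r and C1s, did not pass. Among the receptors, Itgax fell by 2.99 on the log2 scale (adjusted P = 0.00864), and without orchiectomized replicate 2 it fell by 2.26 (adjusted P = 0.00686). Itgb2, the β chain shared by complement receptors 3 and 4, fell by 1.60 (adjusted P = 0.0204), Itgam, the α chain of receptor 3, by 0.89 (adjusted P = 0.0637), and C5ar1, a receptor of the C5a fragment, by 0.76 (adjusted P = 0.0989). The call of C5ar1 was lost in 11 of 15 fits that each left out 1 library, the fit without orchiectomized replicate 2 among them. The call of Itgam was lost in 4. The membrane regulators did not share a direction. Cr1l, which encodes Crry, fell by 0.38 (adjusted P = 0.083), and Cd59b, an inhibitor of the membrane attack complex, rose by 0.86 (adjusted P = 0.0722). Their calls were lost in 7 and 3 of the 15 fits, that of Cr1l also without orchiectomized replicate 2. Factor H, properdin and factor D did not pass the threshold in any comparison.

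**Figure D3:**
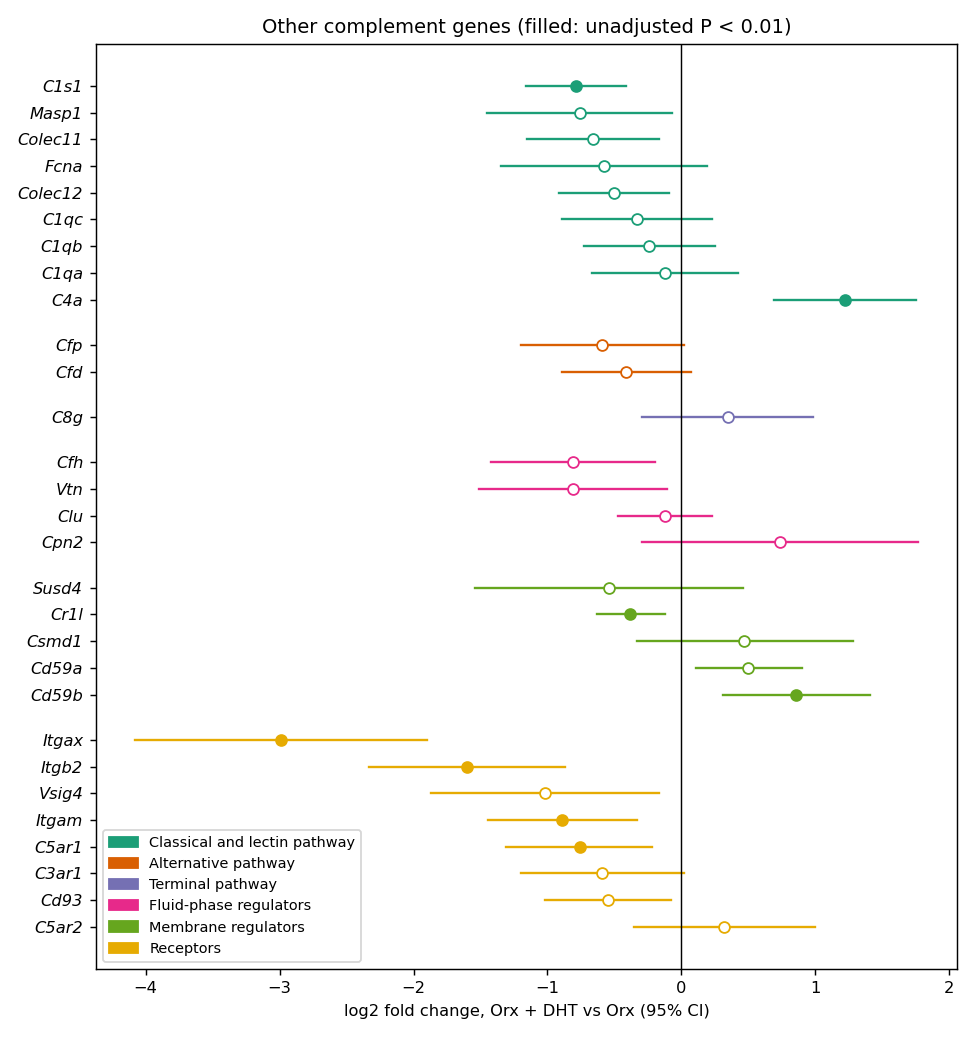
Log2 fold change with its 95% CI (x axis) of the 29 other complement genes tested, for DHT-treated against orchiectomized mice, coloured by role and filled where the unadjusted P value was under 0.01. The 4 filled receptors lie on the lower side, from -0.76 for C5ar1 to -2.99 for Itgax, and the filled points on the higher side are C4a and Cd59b. C4a passed the filter on low counts only through the DHT-treated group.

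Some of the genes have near copies or overlapping neighbours, whose reads the counting could have divided. C4a, the gene of sex-limited protein, lies 65209 bases from C4b. Its level was 0.637 to 0.906 CPM in control, 0.407 to 0.538 CPM in orchiectomized and 0.987 to 1.138 CPM in DHT-treated aortas. It passed the filter on low counts only through the DHT-treated group, where it was highest. Its log2 fold change of 1.22 with DHT (adjusted P = 0.0173) is therefore a description and no support for a rise. The value rested on 5 to 13 counts per library: 7 to 10 in control, 5 to 6 in orchiectomized and 8 to 13 in DHT-treated aortas. C4b had 1402 to 5625 counts per library, and how reads that match both copies were divided is not given in the sources used here. C1rb, the copy of C1ra, had 0 counts in all 15 libraries, and Cd55b, the copy of Cd55, had 3 counts in orchiectomized replicate 2 and 0 elsewhere. Cfb and C2 lie 85 bases apart on chromosome 17 and share 2246 and 1656 exon bases with the readthrough gene Gm20547 on the same strand. Reads in those bases may have been set aside as ambiguous, and the strand setting of the counting is not given in the sources used here. C2 also shares 161 exon bases with Zbtb12 and Cd55 102 with Gm16083, both on the opposite strand.

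Markers of several cell types moved with the same groups, and their part in the results for complement was not tested. In bulk tissue, fewer cells of a type and less RNA per cell cannot be told apart. The 10 markers of adventitial fibroblasts summed to 6270 to 8710 CPM in control, 7160 to 9720 CPM in orchiectomized and 4710 to 7470 CPM in DHT-treated aortas, and 4 of the 10, Lum, Dpp4, Dpt and Gsn, fell with DHT against orchiectomized mice. All 9 mesothelial markers tested fell in that comparison, with sums of 44.4 to 115 CPM, 71.8 to 851 CPM and 16 to 35.3 CPM in the 3 groups. Of the macrophage markers 3 of 8 fell (sums 339 to 738, 486 to 1210 and 358 to 544 CPM), of endothelial markers 3 of 8 (828 to 1190, 984 to 1350 and 696 to 895 CPM), of T cell markers 5 of 5 (3.47 to 12.8, 5.81 to 58 and 2.82 to 5.41 CPM) and of B cell markers 6 of 6 (3.75 to 9.59, 6.78 to 164 and 2.99 to 11.7 CPM). Without orchiectomized replicate 2, 8 mesothelial, 5 fibroblast and 1 macrophage marker fell. Against control, where Cfb and Cd55 were called lower with DHT, 6 mesothelial, 3 fibroblast and 3 endothelial markers were also lower, 2 neutrophil markers were higher and no macrophage, T cell or B cell marker was called. The 8 smooth muscle markers summed to 14300 to 20500 CPM in control, 11200 to 20700 CPM in orchiectomized and 20100 to 25000 CPM in DHT-treated aortas. Their log2 fold changes were all positive for DHT-treated against orchiectomized mice (median 0.43), as were 7 of 8 against control (median 0.41). None passed in any comparison with all libraries, and 1 and 3 were called higher in those comparisons without orchiectomized replicate 2.

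Of the remaining lists, all 3 neutrophil markers tested fell with DHT against orchiectomized mice (0.749 to 2.45, 6.53 to 33.3 and 2.43 to 11.8 CPM in control, orchiectomized and DHT-treated aortas, with 1 of 3 falling without orchiectomized replicate 2) and none of 9 adipocyte markers passed in that comparison (3020 to 10200, 3170 to 6020 and 3950 to 9530 CPM). Hepatocyte markers, of which albumin and 5 others were too low to test, summed to 5.06 to 10.5, 6.64 to 42.5 and 5.26 to 6.16 CPM, and the 1 tested, Ahsg, was lower with DHT against orchiectomized and against control mice. Of 14 interferon-induced genes 1 was higher after orchiectomy and 1 was lower with DHT against orchiectomized mice, with none called against control. Of 11 genes of IL-6 signaling and the acute phase, 1 was lower after orchiectomy and 1 was higher with DHT against orchiectomized mice, as was 1 against control. Of 10 circadian clock genes, 6 were higher and 1 was lower in orchiectomized than in control mice, and none passed between DHT-treated and orchiectomized mice. In DHT-treated against control mice 4 clock genes were higher and 1 was lower.

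**Figure D4:**
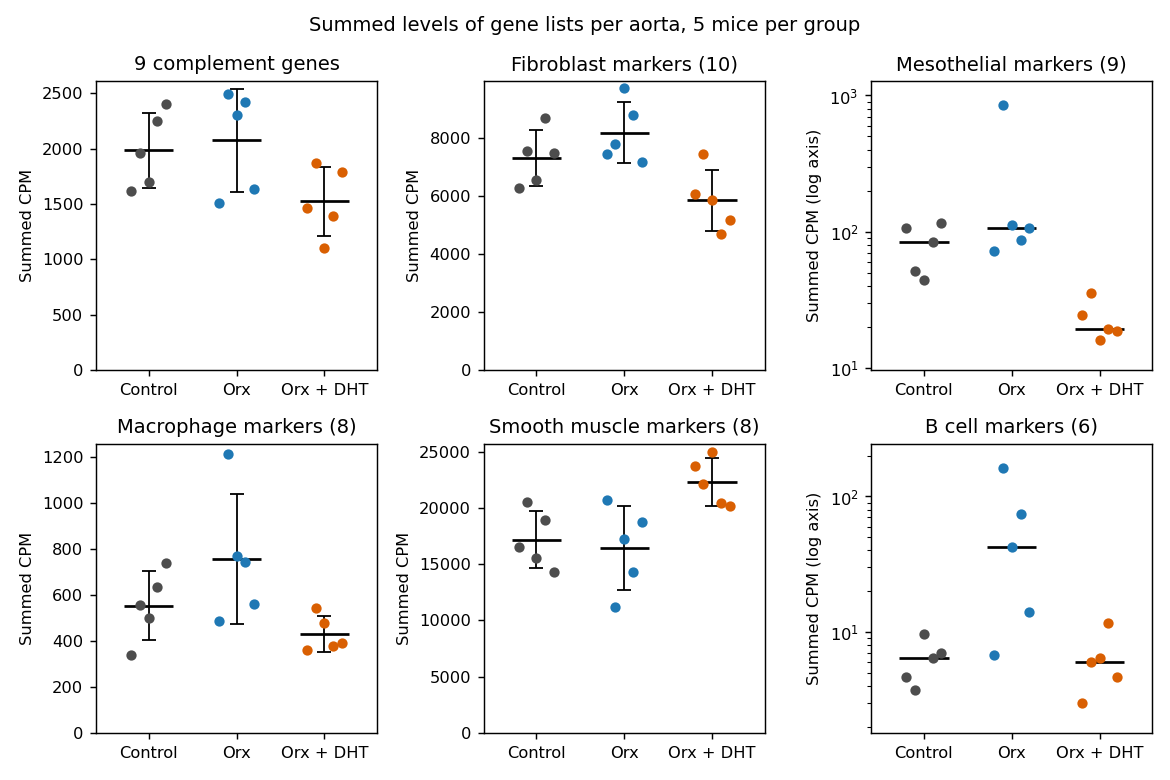
Summed CPM (y axis, logarithmic for mesothelial and B cell markers) of the 9 complement genes and of 5 marker lists in every aorta (points, 5 per group), with bars for mean and SD, or for the median on the logarithmic axes. Fibroblast, mesothelial and macrophage sums were lower on average in the DHT group than in the orchiectomized group, as was the sum of the complement genes, and orchiectomized replicate 2 is the point at 851 CPM in the mesothelial panel, of which Krt8, Krt18, Krt19 and Msln made up 774 CPM.

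Complement levels were also set against the summed fibroblast markers, as a description with no test. That sum was lower with DHT than in orchiectomized mice by a log2 difference of -0.49. Per 1000 CPM of fibroblast markers, Cd55 was at 2.95 ± 0.756 CPM in control, 4.14 ± 2.24 CPM in orchiectomized and 1.83 ± 0.363 CPM in DHT-treated aortas (SD, n = 5 each). It was the only one of the 9 genes whose DHT-treated and orchiectomized aortas still did not overlap on this scale, where 0.857% of all genes had every DHT-treated aorta below. The log2 difference between these groups was -1.06 for Cd55, -0.5 for C2, -0.34 for Cfb, -0.33 for C1ra, -0.2 for C3, 0 for C4b and 0.18 for Serping1. On the same scale C6 and C7 differed by 1.42 and 1.76. C1ra per 1000 CPM of fibroblast markers was 13.2 ± 0.302 CPM in the 5 control aortas, a CV of 2.29%, where its level in CPM had a CV of 14.3%. The CV on the ratio and in CPM was 16.9% and 15.5% in the orchiectomized aortas, and 12.2% and 22.9% in the DHT-treated aortas.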

How the data were processed

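RNA-Seq had been run on 15 mouse aortas, 1 library each. The deposited values are whole-number read counts for each gene symbol, which the authors had not normalized. Per the labels, RNA was poly(A)-enriched and the genome build was mm10, and the submitters' processing notes name STAR, Cufflinks and DESeq2, without a role. The counting program, its strand setting and the annotation are not given in the sources used here. The 2 entries that are not genes, reads with no feature (6.26% to 14.4% of a library) and ambiguous reads (1.34% to 1.97%), were left out. Groups and replicate numbers came from the labels. P values measure the spread between these mice.

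The fit used edgeR 4.0.16 under R 4.3.3: filterByExpr (minimum count 10, minimum total 15), TMM normalization and a quasi-likelihood fit of 3 groups to all 15 libraries, with Benjamini-Hochberg adjustment over 14121 genes. The study's unadjusted P value threshold of 0.01 was used. SEs were derived from the P value and its degrees of freedom. The biological coefficient of variation was 0.297. The fit was tested on simulated data. Log2 CPM used a prior count of 3. Gene positions are from GENCODE vM21 (GRCm38). Members, lists and tests were chosen with earlier results of these data known. The genes named are the 9 members, other complement genes called in any comparison, near copies of members, the 5 genes most like the members' mean, and leading or called markers. The fibroblast ratio, C1q, factor H, properdin and factor D were added after values were seen. Alternatives were DESeq2 1.42.0, RLE size factors, a robust fit, limma 3.58.1 voom with quality weights, no filter, at least 10 counts in every library, only the groups compared, the replicate number as a block, an adjusted threshold of 0.05, and leaving out each library. Figures were drawn in Python 3.11.15.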

Additional observations from a re-analysis of the deposited data

Results flagged for a closer look

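Among the 27 sets of 5 aortas (9 genes in 3 groups), 3 held an aorta whose gap to its nearest neighbour was more than 0.71 of the range of the set, the 95% limit of Dixon's test. Chance gives such a gap in about 1 of 20 sets. C3 was at 1103 CPM in control replicate 5, where the other control aortas were at 732 to 822 CPM. C4b was at 272.9 CPM in DHT replicate 5, with the other DHT-treated aortas at 164 to 188 CPM. C6 was at 10.53 CPM in orchiectomized replicate 2, with the other orchiectomized aortas at 1.29 to 2.41 CPM, and this is the aorta with the highest Krt8, Krt18, Krt19 and Msln.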

How the results depend on the processing

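For single genes, 558 fold changes of the 9 genes kept their direction and side of the threshold under the alternatives, 26 lost and 16 gained a call, and 21 changed sign. The cause was not tested. C1ra and Cd55 passed for DHT-treated against orchiectomized mice under every alternative, and Cfb under all but voom (-0.53). With voom, C2 (-0.77) was lost and C6 (1.48) and C7 (1.41) were called higher. Of the 9 genes, DESeq2 called 1 for orchiectomized against control mice. At an adjusted P value under 0.05, the calls were 3 of the 9 genes for DHT-treated against orchiectomized mice and 0 for DHT-treated against control mice. Of the other complement genes in the 3 comparisons, the adjusted threshold gave 0, 4 and 0. The 4 include C4a, which passed the filter on low counts only through the DHT-treated group. For orchiectomized against control mice, 4 passed with no filter and 1 with at least 10 counts in every library, which left 5 for DHT-treated against orchiectomized mice. For DHT-treated against control mice, DESeq2, voom and the replicate block gave 1 and the fit of only these 2 groups gave 2.

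Leaving out 1 library gave 0 to 1 of the 9 genes for orchiectomized against control mice (C1ra, without DHT replicate 2) and 3 to 5 for DHT-treated against orchiectomized mice (3 without orchiectomized replicate 4 or DHT replicate 1). For DHT-treated against control mice it gave 0 to 4: 0 without control replicate 4 or 5 or DHT replicate 3 or 4, 1 without control replicate 3, and 4 without DHT replicate 2. For the other complement genes the ranges were 1 to 3, 4 to 9 and 0 to 2. Fold changes for orchiectomized against control mice that changed sign were those of C3 (-0.04), C4b (-0.15), C6 (-0.17) and Cfb (-0.05) with voom, of C4b (0.00) and C6 (-0.43) without orchiectomized replicate 2 (up to 0.49 and 0.66 without other libraries), and of Serping1 with RLE size factors, DESeq2 or only 2 groups (-0.01), voom (-0.05), no filter (-0.03) and single libraries left out (-0.10 to 0.10). C7 for DHT-treated against control mice was -0.06 without control replicate 1 and -0.25 without DHT replicate 2, and 0.41 at most without 1 library.

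Whether replicate numbers pair the mice is not given in the sources used here. The deviations of 15 same-numbered pairs had r from -0.466 to 0.463, and 1 library correlated best with its own number. These values cannot exclude a pairing. With the replicate block, 1 of the 9 genes passed for DHT-treated against control mice in place of 2. Leaving out libraries for each other complement gene called, and for the marker lists, was added after the data were seen. Itgax, Itgb2 and C1s1 passed in all 15 fits, as did C4a, which was tested only through the DHT-treated group. The low counts of C6 and C4a limit their precision.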

Other observations

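Hc, which encodes C5, was too low to be tested, with 0 to 5 counts in 14 libraries and 882 counts (78.1 CPM) in orchiectomized replicate 2. Cr2, which encodes complement receptor 2 of B cells and follicular dendritic cells, was also untested. It had 72, 65 and 16 counts in orchiectomized replicates 2, 4 and 3, and 0 to 5 counts in each of the other 12 libraries.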
